A study of Mus musculus with 8 samples.

Results

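Mpzl1, Slc25a18, Cnnm4 and Pdlim7 are 4 genes with low read counts in vehicle-treated Eμ-Myc lymphoma cells and several times more reads after 2 h of JQ1. They were selected on these values, as genes among the largest rises after JQ1 in both cell lines that belong to neither the histone nor the autophagy families. They are 4 of 43629 genes listed with counts and 4 of the 12413 genes with enough reads to be tested, and all 4 were found and tested. The JQ1 differences of the 4 genes, in each line and compared between the lines, are therefore given as a description with no test. The differences in level between the cell lines within a treatment were tested. These tests use the same values as the choice and are not independent of it, so no likeness of the lines is read from them.

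The cells were early passage cultures of Eμ-Myc lymphoma lines #1.1 and #1.2, both of C57BL/6 strain. In Eμ-Myc mice a Myc transgene is driven by the immunoglobulin heavy chain enhancer, so every group, controls included, carries the transgene. Each line received DMSO, the vehicle, or 250 nM JQ1 for 2 h. JQ1 is a bromodomain inhibitor that keeps BET proteins off acetylated histones. Total RNA was sequenced in 2 libraries for each of the 4 groups, 8 in all. The labels do not say whether the 2 libraries of a group came from separate cultures, so errors and p-values reflect only how these libraries scatter, part of which may be technical. Nor do they say whether a line is a single clone.

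The libraries held 10347453 to 13049877 reads assigned to genes. Markers of the B lineage were abundant, and all 8 listed genes were tested. Their summed level was 1935 to 2092 CPM (read counts divided by the size of the library, on the usual CPM scale) in DMSO and 1321 to 1502 CPM in JQ1. All 8 were called lower after JQ1, or 7 with DESeq2, where 31.3% of all tested genes were called lower with edgeR. Of 50 listed markers of T, NK, myeloid, erythroid, stromal, endothelial, epithelial, glial and neuronal cells, 23 had 0 reads in every library. The filter on low counts was passed by 5, of which 3 were called lower after JQ1 and 0 higher. With DESeq2 the myeloid and the epithelial gene among these 3 lost the call, and the endothelial gene kept it. Without Vim, which B cells also express, the other 49 summed to 8.13 to 10.3 CPM in DMSO and 5.85 to 6.93 CPM in JQ1. Reads outside genes were 12.3 to 13.1% of the total in the DMSO libraries and 14.0 to 14.4% in the JQ1 libraries, and the TMM scaling factors were 1.01 to 1.02 and 0.982 to 0.988. Their part in the results was not tested. The reads of Gm42418, a transcript that overlaps a ribosomal RNA repeat, were at 1296 and 2644 CPM in line #1.2 with JQ1 and at 341 to 977 CPM elsewhere. With Gm42418 as a covariate the averaged log2 differences of the 4 genes after JQ1 were 3.23, 2.83, 2.82 and 2.32 for Mpzl1, Slc25a18, Cnnm4 and Pdlim7. In bulk RNA, more cells with a transcript and more RNA per cell cannot be told apart.

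The 4 proteins act in different places. Mpzl1 encodes PZR, a surface glycoprotein of the immunoglobulin superfamily whose cytoplasmic tail carries immunoreceptor tyrosine-based inhibitory motifs (ITIMs) that bind the tyrosine phosphatase SHP2 once phosphorylated. Slc25a18 encodes GC2, a carrier of the inner mitochondrial membrane that moves glutamate together with a proton into the matrix, and is best known from brain. Cnnm4 encodes a cyclin M family protein of the plasma membrane that takes part in magnesium export, and the PRL phosphatases bind this family. Pdlim7, also called Enigma, is an adaptor with a PDZ domain that binds actin-associated proteins and LIM domains that bind signalling proteins.

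In the GRCm38 assembly, with GENCODE annotation, Mpzl1 (ENSMUSG00000026566) lies on the minus strand at chr1:165592240-165634538. Its 12 annotated transcripts together cover 3550 exonic bases. Slc25a18 (ENSMUSG00000004902) lies on the plus strand at chr6:120773578-120794336, with 1 annotated transcript and 1911 exonic bases. Cnnm4 (ENSMUSG00000037408) lies on the plus strand at chr1:36471620-36508764, with 2 transcripts and 4829 exonic bases. Pdlim7 (ENSMUSG00000021493) lies on the minus strand at chr13:55495795-55513676, with 11 transcripts and 4849 exonic bases. The spans are ordinary for tested genes, at the 73.8th, 53.5th, 70.6th and 49.3rd percentile in the order given. The exons of Slc25a18 and of Atp6v1e1, on the opposite strand, share 32 bases. The strand setting of the counting is not given in the sources used here, so reads in those bases cannot be assigned to one gene. Pdlim7 shares 68 exonic bases with the microRNA gene Mir6945, which had 0 reads.

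The promoter windows of the 4 genes, 250 bases before to 50 bases after the RefSeq start site (GRCm38.p6), were compared with all 32851 mouse windows of the same length, because the genes shared a response to a compound that acts on chromatin. The windows of Mpzl1 and Cnnm4 are shown since none of their upstream bases lies in an annotated exon. The 250 upstream bases of Mpzl1 lie at chr1:165634542-165634791 on the minus strand and those of Cnnm4 at chr1:36471347-36471596 on the plus strand. They are written 5′ to 3′ on the strand of the gene and end at the base before the start site. Capitals mark the GC box GGGCGG, the CCAAT box and the cAMP response element TGACGTCA, each searched on both strands.
Mpzl1 upstream: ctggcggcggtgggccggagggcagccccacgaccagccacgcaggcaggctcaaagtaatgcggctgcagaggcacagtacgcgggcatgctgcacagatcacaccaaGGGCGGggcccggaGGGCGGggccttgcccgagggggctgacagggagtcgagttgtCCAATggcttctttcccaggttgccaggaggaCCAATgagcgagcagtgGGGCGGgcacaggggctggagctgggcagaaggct
Cnnm4 upstream: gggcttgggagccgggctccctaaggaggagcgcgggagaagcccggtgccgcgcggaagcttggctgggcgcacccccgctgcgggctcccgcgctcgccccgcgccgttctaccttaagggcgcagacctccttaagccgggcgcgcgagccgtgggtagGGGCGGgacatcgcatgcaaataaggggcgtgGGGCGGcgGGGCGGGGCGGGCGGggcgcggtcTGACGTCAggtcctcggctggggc

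The GC content was 70.0% in the Mpzl1 window, 76.3% in that of Cnnm4 and 69.7% in that of Pdlim7, against a median of 52.7% over all windows. That of Slc25a18 was 49.3%, and 190 of its 250 upstream bases lie in an annotated exon. CpG dinucleotides numbered 20, 42, 26 and 4 in Mpzl1, Cnnm4, Pdlim7 and Slc25a18, against a median of 7. So the windows of 3 of the 4 genes were above the median in GC and CpG, and that of Slc25a18 was below it. The CpG counts lay at the 73.5th, 97.0th, 83.1st and 31.4th percentile of all windows in the order given. GC boxes were found in Mpzl1, Cnnm4 and Pdlim7, where 35.7% of all windows hold one. The GC boxes of Cnnm4 partly overlap each other. The 2 CCAAT boxes of Mpzl1 have a counterpart in 37.4% of all windows, and the cAMP response element of Cnnm4, in the last bases before the start, in 1.79%. The letters of a TATA box, TATAAA, occurred in the Slc25a18 window, as in 13.6% of windows. They began at -75 from the RefSeq start, among the upstream bases that lie in the annotated exon. The E-box CACGTG, the sequence MYC binds, occurs in 7.15% of all windows and the AP-1 motif TGANTCA in 7.81%, and neither was found in any of the 4. A match describes letters in a window and no measured binding.

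Reads for Mpzl1 numbered 17 and 9 in line #1.1 with DMSO and 133 and 106 with JQ1. In line #1.2 they numbered 9 and 14 with DMSO and 91 and 90 with JQ1. After scaling of library sizes these were 1.29 and 0.861 CPM against 11.0 and 9.66 CPM in line #1.1, and 0.812 and 1.16 CPM against 8.01 and 7.98 CPM in line #1.2. The DMSO libraries of both lines were all near 1 CPM and the lowest JQ1 library was 6.18 times the highest DMSO library. The groups did not overlap, as was so in this direction for 23.7% of all tested genes. Nothing is read from this for the 4 genes, which were chosen on these values. The mean was 1.08 ± 0.305 CPM (SD, n = 2) in DMSO and 10.3 ± 0.937 CPM in JQ1 in line #1.1, and 0.986 ± 0.245 and 7.99 ± 0.0218 CPM in line #1.2. Averaged over the lines, the log2 difference was 3.11 ± 0.171 (SE), or 8.63-fold.

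Slc25a18 had 17 and 31 reads in line #1.1 with DMSO and 199 and 162 with JQ1, or 1.29 and 2.96 CPM against 16.4 and 14.8 CPM. In line #1.2 it had 18 and 22 reads with DMSO and 145 and 116 with JQ1, or 1.63 and 1.82 CPM against 12.8 and 10.3 CPM. The DMSO libraries of line #1.1 differed from each other by more than those of any other group of this gene, relative to their mean (coefficient of variation 55.6%). Over genes in general the 2 libraries of that group also differed most, at a chi-square of read counts per gene of 4.09 against 1.36 to 2.14 elsewhere. The lowest JQ1 library of Slc25a18 was still 3.47 times its highest DMSO library. The group means were 2.13 ± 1.18 and 15.6 ± 1.18 CPM (SD, n = 2) in line #1.1 and 1.72 ± 0.139 and 11.5 ± 1.75 CPM in line #1.2. The log2 difference averaged over the lines was 2.83 ± 0.160, or 7.12-fold. Within line #1.1 it was 2.93, and 2.39 or 3.59 without the first or the second DMSO library of that line.

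Cnnm4 was the most highly counted of the 4. It had 107 and 83 reads in line #1.1 with DMSO, 646 and 597 with JQ1, 68 and 104 in line #1.2 with DMSO and 592 and 563 with JQ1. The levels were 8.13 and 7.94 CPM against 53.4 and 54.4 CPM in line #1.1, and 6.14 and 8.61 CPM against 52.1 and 49.9 CPM in line #1.2. All 4 JQ1 libraries lay within a few CPM of each other, at least 5.80 times above every DMSO library. The means were 8.03 ± 0.135 and 53.9 ± 0.747 CPM (SD, n = 2) in line #1.1 and 7.37 ± 1.75 and 51.0 ± 1.55 CPM in line #1.2. The averaged log2 difference of 2.76 ± 0.0750, or 6.78-fold, had the smallest standard error of the 4.

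Pdlim7 had 64 and 53 reads in line #1.1 with DMSO, 324 and 256 with JQ1, 49 and 69 in line #1.2 with DMSO and 287 and 289 with JQ1. In CPM these were 4.86 and 5.07 against 26.8 and 23.3 in line #1.1, and 4.42 and 5.71 against 25.3 and 25.6 in line #1.2. The lowest JQ1 library was 4.09 times the highest DMSO library, and the groups did not overlap. The means were 4.96 ± 0.146 and 25.1 ± 2.42 CPM (SD, n = 2) in line #1.1 and 5.07 ± 0.912 and 25.4 ± 0.254 CPM in line #1.2. The averaged log2 difference was 2.33 ± 0.0943, or 5.02-fold, the smallest of the 4.

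**Figure D1:**
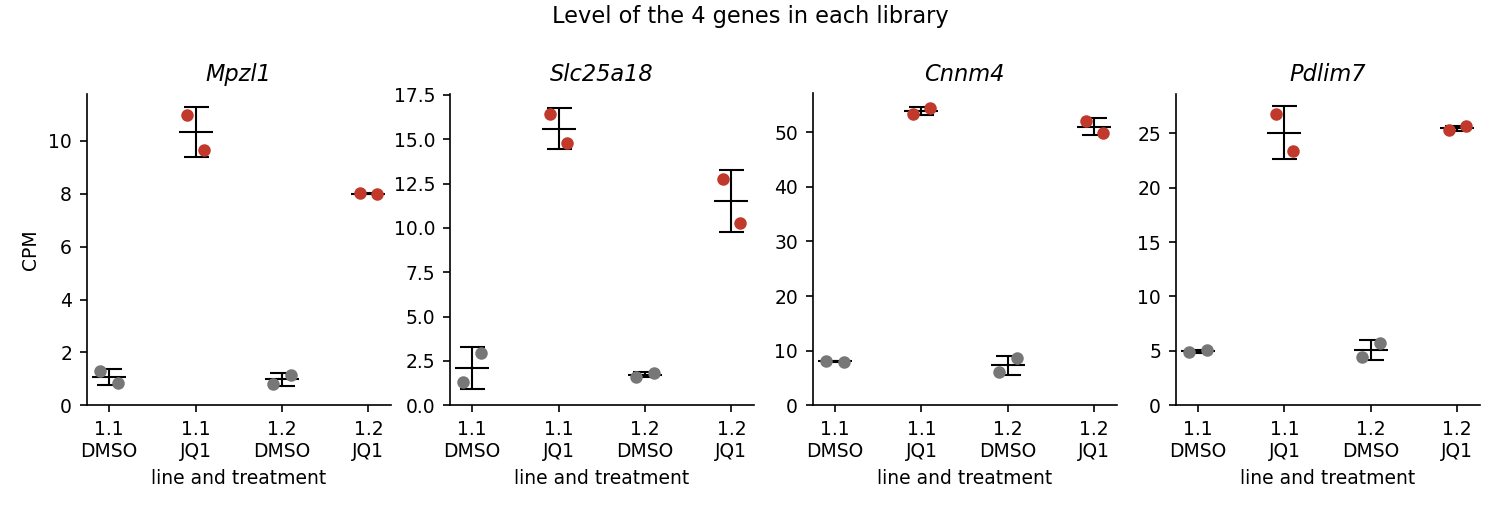
Level of each gene in CPM in each of the 8 libraries, by cell line and treatment, with points for libraries and bars for the mean of 2. In all 4 panels the JQ1 libraries lie above every DMSO library, from 3.47 times for Slc25a18 to 6.18 times for Mpzl1.

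Levels of different genes were compared per kilobase of annotated exon (RPKM). With DMSO the mean over the 4 libraries was 0.290 RPKM for Mpzl1, 1.01 for Slc25a18, 1.03 for Pdlim7 and 1.60 for Cnnm4. These levels lie at the 5.45th, 16.6th, 17.0th and 22.6th percentile of all tested genes. With JQ1 the order was Mpzl1 at 2.58, Pdlim7 at 5.21, Slc25a18 at 7.10 and Cnnm4 at 10.9 RPKM, at the 31.3rd, 45.1st, 52.6th and 63.2nd percentile. The 4 genes thus stood in the low range of tested genes with DMSO and nearer its middle with JQ1. Slc25a18 and Pdlim7 did not differ beyond their spread in DMSO, at 1.11 ± 0.619 and 1.02 ± 0.0301 RPKM in line #1.1. In JQ1 they lay apart in line #1.1, at 8.17 ± 0.619 and 5.17 ± 0.500 RPKM (SD, n = 2), and within 1 SD in line #1.2, at 6.03 ± 0.917 and 5.25 ± 0.0525 RPKM. The exon lengths come from GENCODE and may not be those of the transcripts used in these cells.

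Among the 12413 tested genes 62% changed with JQ1 at an adjusted p of 0.05, 30.7% upward and 31.3% downward (edgeR's quasi-likelihood test with Benjamini-Hochberg adjustment). Nothing is read from the 4 members being among them, because this contrast chose them. Among the 9382 genes averaging 5 CPM or more, Mpzl1 ranked 4th by averaged log2 difference, Slc25a18 7th, Cnnm4 8th and Pdlim7 12th. Without that minimum they ranked 30th, 43rd, 44th and 74th, behind genes with fewer reads. Mpzl1, at a mean of 5.10 CPM, was just above the minimum. Mpzl1 and Slc25a18 met it through their JQ1 libraries.

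Next to them in rank stood Hist1h2bc, a histone H2B gene, at a log2 difference of 3.55 just above Mpzl1, and Hist1h2bl at 2.96 just below it. Fzd5, a WNT receptor, was at 2.94 and preceded Slc25a18, and Gm26397 at 2.47 followed Cnnm4. Ccnyl1, a cyclin Y-like gene, at 2.34 and Sil1, a nucleotide exchange factor of the endoplasmic reticulum, at 2.27 stood on either side of Pdlim7. A rise of at least 4-fold (log2 of 2) in both lines was seen in 82 tested genes, 16 of them averaging 5 CPM or more.

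**Figure D2:**
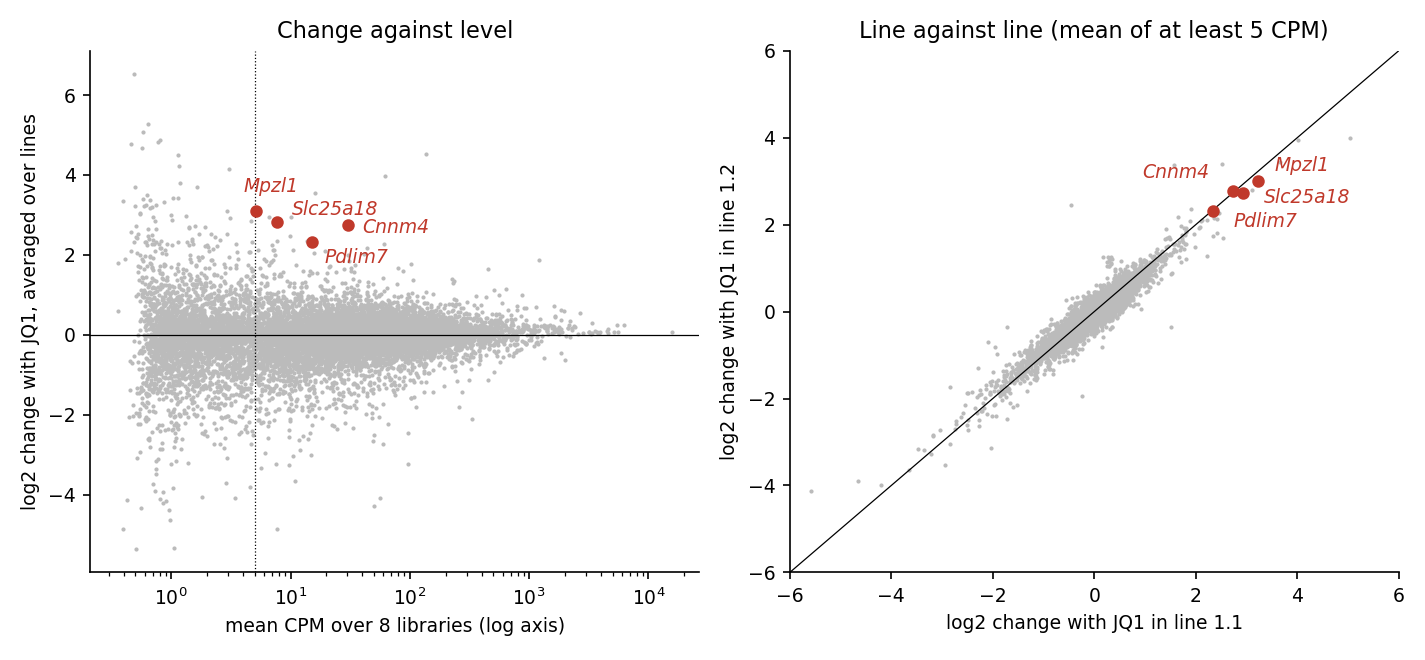
Left, log2 difference with JQ1 averaged over the lines against mean CPM for all 12413 tested genes, with a dotted line at 5 CPM. Right, the difference in line #1.2 against that in line #1.1 for genes averaging 5 CPM or more. The 4 genes, in red, lie at the upper edge on the left and close to the diagonal on the right.

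The 2 lines were compared next. The log2 differences with JQ1 in lines #1.1 and #1.2 were 3.22 and 2.995 for Mpzl1, 2.93 and 2.73 for Slc25a18, 2.74 and 2.78 for Cnnm4 and 2.34 and 2.32 for Pdlim7. Line #1.2 minus line #1.1, the difference of log2 responses was -0.23 ± 0.427 (SE) for Mpzl1, -0.20 ± 0.385 for Slc25a18, 0.036 ± 0.172 for Cnnm4 and -0.022 ± 0.211 for Pdlim7. The genes were chosen for a large rise in both lines, which favours similar responses, so no test of this difference is given for them. Over all genes that test called 14 of 12413 (0.113%). For Slc25a18 the difference turned to 0.34 without the first DMSO library of line #1.1 and was -0.86 without the second. The sign also turned for Mpzl1 (0.060) and Pdlim7 (0.18) without the second DMSO library of line #1.2, and for Cnnm4 (-0.18) without the first.

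With DMSO alone, 6.77% of tested genes were called different between the lines, and none of the 4 was. No likeness of the lines is read from this, because the genes were chosen on the same libraries. The log2 differences, line #1.2 minus line #1.1, were -0.15 for Mpzl1 (95% interval -0.95 to 0.66, edgeR adjusted p = 0.887), -0.24 for Slc25a18 (-0.96 to 0.48, edgeR adjusted p = 0.765), -0.12 for Cnnm4 (-0.44 to 0.21, edgeR adjusted p = 0.738) and 0.040 for Pdlim7 (-0.35 to 0.43, edgeR adjusted p = 0.936). The directions depended on single libraries. For Slc25a18 the difference was -0.78 without the first and 0.41 without the second DMSO library of line #1.1. For Mpzl1 it turned to 0.20 without the first DMSO library of line #1.1 and to 0.072 without the first of line #1.2. For Cnnm4 it turned to 0.094 without the first DMSO library of line #1.2, and for Pdlim7 to -0.16 without the second.

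With JQ1, 6.40% of tested genes differed. Slc25a18 was lower in line #1.2 by a log2 difference of -0.44 ± 0.150 (95% interval -0.75 to -0.13), but the adjusted p of 0.0830 from edgeR missed the threshold. It passed without the first (edgeR adjusted p = 0.0132) or the second (0.0129) DMSO library of line #1.1, and without the filter on low counts (0.0262). Over all alternatives it ran from 0.0129 to 0.623, the highest with Gm42418 as a covariate. Mpzl1 had a difference of -0.37 ± 0.153 (95% interval -0.69 to -0.055, edgeR adjusted p = 0.161). Cnnm4 and Pdlim7 had differences of -0.079 and 0.019 (edgeR adjusted p = 0.603 and 0.944), whose signs turned with Gm42418 as a covariate (0.035 and -0.0011) and, for Pdlim7, without the second JQ1 library of line #1.1 (-0.076). The line difference in JQ1 was thus not called for any of the 4, in a test that is not independent of how they were chosen.

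Relatives of the 4 genes did not share the size of their differences. The 4 were chosen for that size, so nothing is read from this contrast. The relatives and pathway genes were listed with earlier results of these data known, and are described by how many passed the test, beside the 30.7% of all tested genes called higher, the 31.3% called lower and the median log2 difference of 0.0036 over all tested genes.

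The paralogs Mpzl2 and Mpzl3 had at most 2 reads in any library and were not tested. Of 18 phosphatases, kinases and adaptors around PZR, 13 were tested. Of these 7 were higher, 4 lower and 2 not called, with a median log2 difference of 0.15. Ptpn11, which encodes SHP2, was higher by 0.32 ± 0.0335 (edgeR adjusted p = 1.02e-08), with 217 CPM in DMSO and 262 CPM in JQ1 in line #1.1, and 197 and 256 CPM in line #1.2. Ptpn6, which encodes the related SHP1, fell by 0.96 ± 0.0466 (edgeR adjusted p = 9.29e-15), from 116 to 52.7 CPM and from 148 to 86.1 CPM. The adaptor Grb2 was higher by 0.43, and the kinases Csk and Ptk2b were lower, at -0.31 and -0.67.

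Other surface receptors that carry ITIMs or bind SHP phosphatases went the opposite way to Mpzl1. Of 23 listed, 12 were tested, and 11 of the 12 were lower, none was higher and Cd300a was not called (0.04, edgeR adjusted p = 0.852). The median log2 difference was -1.42, and the summed level was 1197 to 1310 CPM in the DMSO libraries and 438 to 514 CPM in the JQ1 libraries. Pecam1, an adhesion receptor, fell by 2.07 ± 0.0564 (edgeR adjusted p = 1.19e-19), with 91.7 CPM in DMSO and 23.2 CPM in JQ1 in line #1.1, and 86.8 and 19.5 CPM in line #1.2. Cd22, a sialic acid-binding inhibitor of the B cell receptor, fell by 1.59 and Fcgr2b, the inhibitory Fc receptor of B cells, fell by 1.42. Fcrla, an intracellular Fc receptor-like protein that is not itself an ITIM receptor at the surface, fell by 1.42. Several of these receptors are B cell genes, and the 8 B lineage markers were lower too, with a median of -0.55.

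The other mitochondrial carriers of glutamate showed small differences or none. Slc25a22, which encodes GC1, the other glutamate and proton carrier, had 36.2 and 31.2 CPM with DMSO and JQ1 in line #1.1 and 33.5 and 32.0 CPM in line #1.2. Its log2 difference was -0.14 ± 0.0595 (edgeR adjusted p = 0.0410), and the call was lost in 9 of the alternatives, 5 of which leave out 1 library: the second DMSO library of line #1.1 (0.0763), the first JQ1 library of line #1.1 (0.162), the second DMSO library of line #1.2 (0.259) and either JQ1 library of line #1.2 (0.0832 and 0.0945). Slc25a12, an aspartate and glutamate carrier, was not called (-0.08, edgeR adjusted p = 0.206), although it was without the second DMSO library of line #1.1 (-0.13, 0.0281). Its paralog Slc25a13 had 0 reads in every library.

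Of 27 listed genes of glutamate, aspartate and malate metabolism, 24 were tested, with 12 higher, 3 lower and 9 not called and a median log2 difference of 0.18. The share called higher was 50.0%. Oat, ornithine aminotransferase, rose by 0.74 ± 0.0394 (edgeR adjusted p = 5.41e-14), with 77.8 CPM in DMSO and 136 CPM in JQ1 in line #1.1, and 82.8 and 132 CPM in line #1.2. Slc1a5, the plasma membrane carrier of glutamine, rose by 0.53 and glutamine synthetase Glul by 0.53. Aldh4a1, of proline breakdown, had the largest rise of the list, by 1.03 ± 0.100 (edgeR adjusted p = 3.34e-09).

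In the CNNM family, Cnnm3 rose by 0.31 ± 0.0609 (edgeR adjusted p = 8.75e-05), with 31.2 CPM in DMSO and 36.1 CPM in JQ1 in line #1.1, and 25.1 and 33.7 CPM in line #1.2. Cnnm2 had at most 15 reads in a library and was not called (0.63 ± 0.321, edgeR adjusted p = 0.0943), although it was without the first DMSO library of line #1.1 (1.07, 0.0246). Cnnm1 had 0 reads in every library. Per kilobase of exon, the mean level of Cnnm4 was below that of Cnnm3 with DMSO, at 1.60 against 4.39 RPKM, and above it with JQ1, at 10.9 against 5.44 RPKM.

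Of 22 genes of magnesium transport and CNNM partners, 15 were tested, with 7 higher, 4 lower and 4 not called, and the median was 0.10. Mmgt2, a membrane magnesium transporter, fell by 1.13 ± 0.0786 (edgeR adjusted p = 7.74e-12), from 21.9 to 9.48 CPM and from 22.1 to 10.7 CPM in the 2 lines. Nipal3, of the NIPA transporter family, fell by 0.85, and Tmem165, a Golgi ion transporter, rose by 0.55. Of the PRL phosphatases that bind CNNM proteins, Ptp4a1 rose by 0.32, Ptp4a3 fell by 0.27 and Ptp4a2 was not called, at -0.01.

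The PDZ-LIM family moved in both directions. Pdlim5, also called ENH and the closest in build to Pdlim7, rose by 1.08 ± 0.0504 (edgeR adjusted p = 3.80e-15), with 30.5 CPM in DMSO and 60.1 CPM in JQ1 in line #1.1, and 25.7 and 58.4 CPM in line #1.2. Pdlim2, an adaptor that promotes degradation of signalling proteins, fell by 2.13 ± 0.143 (edgeR adjusted p = 3.87e-12), from 8.10 to 1.52 CPM and from 9.43 to 2.61 CPM. Pdlim1 was not called, at 0.02 (edgeR adjusted p = 0.653), with 88.0 to 97.6 CPM as group means. Pdlim3 had at most 11 reads in a library, and Pdlim4 and Ldb3 had 0. Of 32 LIM domain and actin cytoskeleton genes 22 were tested, with 8 higher, 9 lower and 5 not called and a median of 0.03. Lasp1 rose by 0.98, paxillin (Pxn) by 0.62 and Lims1 (PINCH1) by 0.60, and the actin-binding LIM protein gene Ablim1 fell by 1.34.

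**Figure D3:**
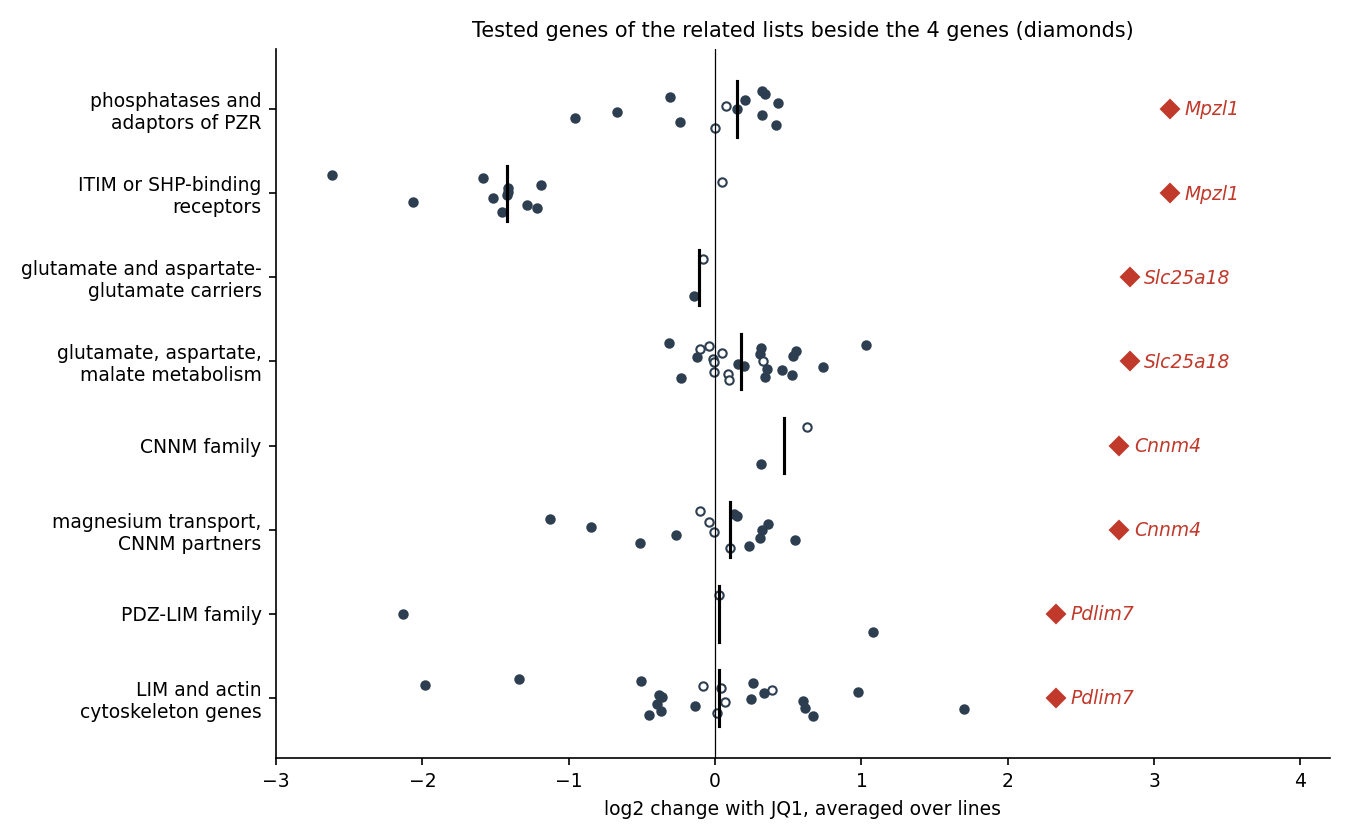
Log2 difference with JQ1, averaged over the lines, of each tested gene in the lists around the 4 genes, with the 4 genes themselves as red diamonds beside their lists, filled points for genes that passed the test and bars for medians. In the list of receptors that carry ITIMs or bind SHP phosphatases, every tested gene except Cd300a lies below 0. Each list with more than 2 genes tested has points on both sides of 0.

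No tested gene beside the 4 on the chromosome rose as far as they did. The 4 were chosen for the size of their rise, so this was nearly fixed in advance and nothing is read from it. Of 25 neighbouring or overlapping protein-coding genes, 20 were tested, with 9 higher (45.0%, against 30.7% of all tested genes), 5 lower (25.0%, against 31.3%) and 6 not called, and log2 differences from -0.90 to 1.04. With Gm42418 as a covariate the higher calls of Dcaf6 (edgeR adjusted p = 0.0589), Lman2l (0.0508), Fam193b (0.228) and Mical3 (0.215) were lost. The lower call of Bcl2l13 was lost there too, and Hdhd5 was called higher. Among genes that do not overlap the 4, the nearest tested one fell beside Mpzl1, Slc25a18 and Pdlim7 and rose beside Cnnm4. Rcsd1, a regulator of actin capping 12.0 kb from Mpzl1, fell by 0.90 ± 0.0366 (edgeR adjusted p = 2.35e-16), with 177 CPM in DMSO and 94.8 CPM in JQ1 in line #1.1, and 168 and 89.1 CPM in line #1.2. Cecr2, a bromodomain gene that ends 2.39 kb before Slc25a18, fell by 0.50 ± 0.0306 (edgeR adjusted p = 7.92e-13), from 820 to 563 CPM and from 767 to 562 CPM. Dok3, an adaptor of B cell receptor signalling 9.55 kb from Pdlim7, fell by 0.81 ± 0.0436 (edgeR adjusted p = 5.76e-14), from 156 to 90.3 CPM and from 181 to 102 CPM.

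Other neighbours were higher by smaller amounts. Cnnm3, which starts 3.10 kb beyond Cnnm4, is described above, and Atp6v1e1, a subunit of the vacuolar proton pump that overlaps Slc25a18, rose by 0.30 ± 0.0476 (edgeR adjusted p = 5.99e-06). Prr7, near Pdlim7, showed the largest rise of the 20, by 1.04 ± 0.219 (edgeR adjusted p = 0.000226), at 1.46 to 3.28 CPM in line #1.1 and 1.49 to 2.83 CPM in line #1.2. Mical3, near Slc25a18, rose by 0.54 (edgeR adjusted p = 0.0184), a call lost without the second DMSO library (0.0846) or the second JQ1 library (0.121) of line #1.2, with Gm42418 as a covariate (0.215) and with DESeq2 (0.0698). Bcl2l13 fell by 0.13 (edgeR adjusted p = 0.0107), a call lost without the second JQ1 library of line #1.2 (0.0794), with Gm42418 as a covariate (0.416) and with DESeq2 (0.0671). Hdhd5 was not called (0.13, edgeR adjusted p = 0.0991), but was without the first DMSO library of line #1.1 (0.25, 0.000345) and with Gm42418 as a covariate (0.36, 0.00113).

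**Figure D4:**
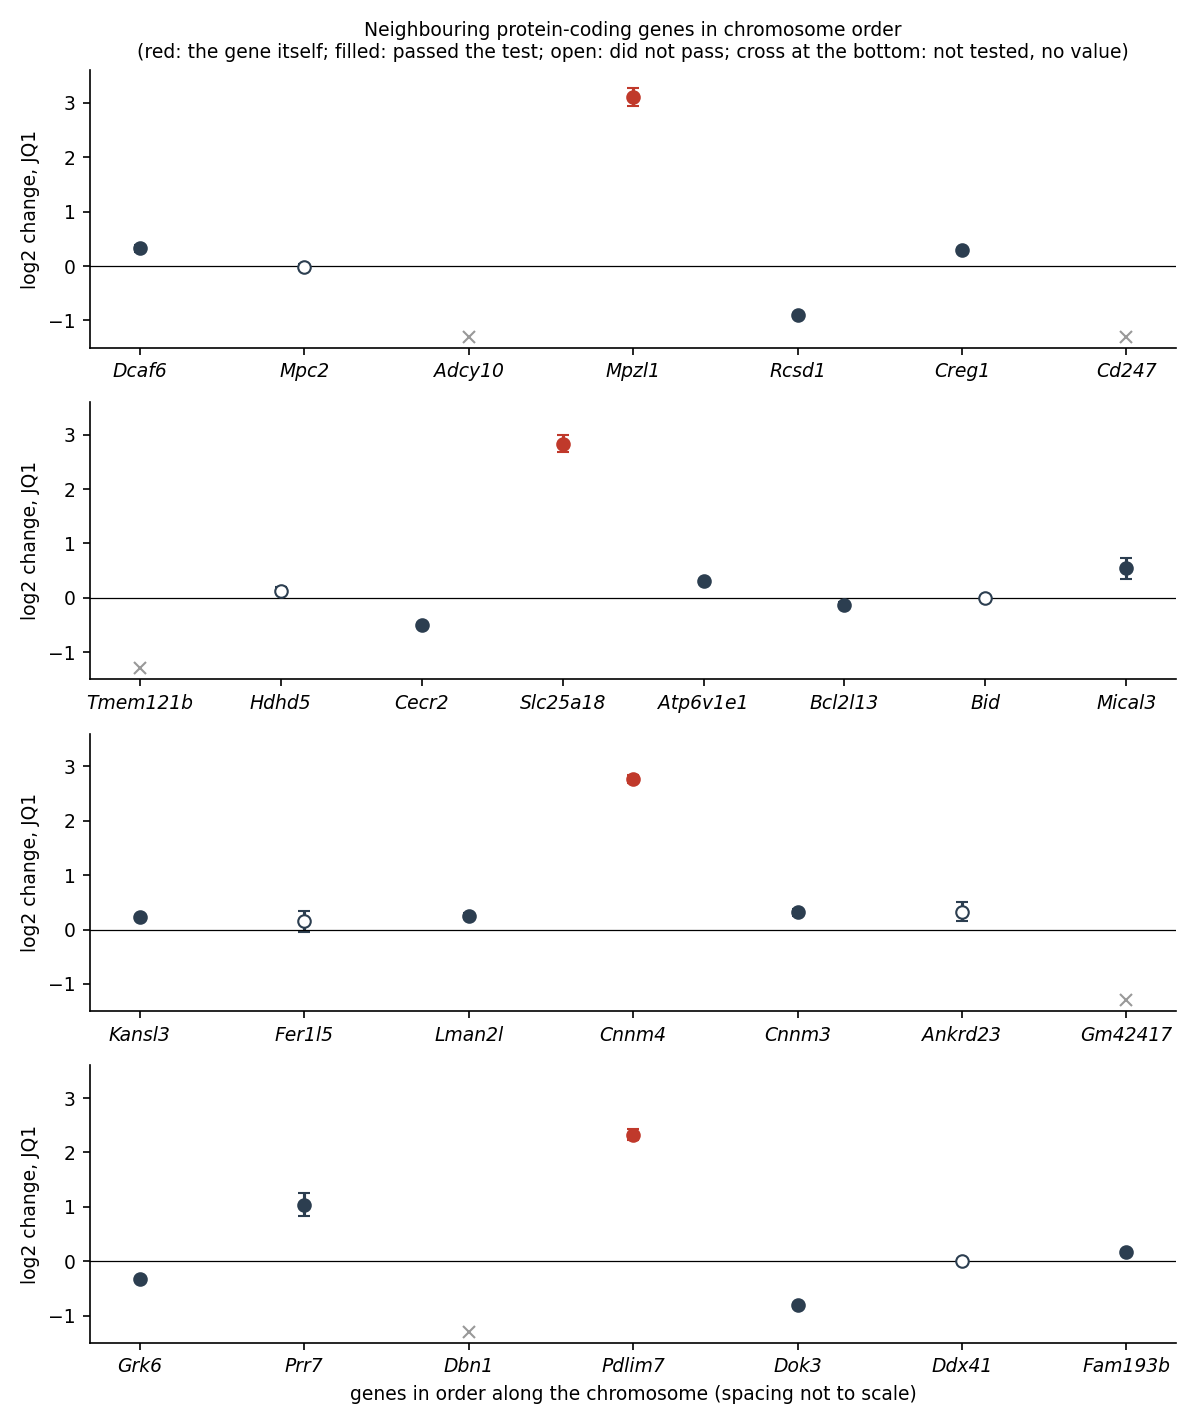
Log2 difference with JQ1, averaged over the lines, of each of the 4 genes (red) and the nearest protein-coding genes on either side, in chromosome order, with bars of 1 SE. No tested neighbour lies above 1.04, and each of the 4 genes, chosen for a large rise, lies above 2.

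Lastly, the genes with the most similar pattern over the 8 libraries were sought among the 8458 genes that average 5 CPM or more and have a symbol that is no clone, pseudogene or identifier. Likeness was the root mean square difference of log2 CPM, each gene centred on its own mean, so that it reads the size of the JQ1 difference as well as its shape. Cnnm4 was the nearest gene to Mpzl1, at 0.195, and to Slc25a18, at 0.330. Cnnm4 in turn had Mpzl1 nearest, then Pdlim7 at 0.247 and Trp53inp2, an autophagy gene, at 0.279. Pdlim7 lay closest to Trp53inp2 at 0.0863, Habp4, an RNA-binding protein gene, at 0.122 and Tob1, an antiproliferative gene, at 0.139. Fzd5 at 0.305 and Ccnyl1 at 0.367 followed for Mpzl1, and Naaladl1, a peptidase gene, at 0.384 and Pdlim7 at 0.400 for Slc25a18. The 8 points are the same libraries for all genes, split mainly by JQ1. Mpzl1, Slc25a18, Cnnm4 and Pdlim7 were chosen for a large JQ1 rise, and the root mean square difference reads the size of that rise. Each other, and further genes with large rises, were therefore favoured as nearest, so nothing is read from these likenesses. Mpzl1 and Slc25a18 also met the minimum of 5 CPM only through their JQ1 libraries. Ranked by Pearson's correlation, which ignores the size of the difference, 0 of the 3 nearest genes stayed the same for Mpzl1 and Slc25a18 and 1 of 3 for Cnnm4 and Pdlim7, so the order of neighbours depends on the measure.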

How the data were processed

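Total RNA came from Nucleospin columns and the libraries from the TruSeq RNA kit of Illumina, per the labels' protocols. The authors deposited raw counts of reads per gene, and the submitters' processing notes name HTSeq, TopHat, Bowtie2, cutadapt 1.7, limma and FastQC, and the GRCm38 (mm10) assembly. Not given in the sources used here are the annotation release and the strand setting. The 5 HTSeq summary lines were left out: reads outside genes were 12.3 to 14.4% and ambiguous reads 1.54 to 1.67% of each library's total.

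From the counts, 12413 genes passed filterByExpr (minimum count 10). Libraries were scaled by TMM, and 4 group means were fitted to all 8 libraries (4 residual degrees of freedom) with edgeR 4.0.16 in R 4.3.3. The quasi-likelihood test was two-sided with Benjamini-Hochberg adjustment over all tested genes and a threshold of 0.05. CPM are read counts divided by TMM-scaled library sizes, RPKM divide them by the GENCODE M21 exon length, and the 95% intervals use the fit's standard errors. The fit was tested on simulated data with 200 changed genes. Whether libraries of the same replicate number were made as a set is not known, and the main fit did not pair them. Deviations of same-numbered libraries from their group means correlated from -0.0603 to 0.0535 over genes, which does not settle it.

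The 4 genes, the lists and the tests were chosen with earlier results of these data known. Named besides the 4 are the 3 nearest protein-coding genes on each side and overlapping genes, the 3 genes most alike in pattern, the adjacent ranks, direct paralogs, and up to 4 genes per list of lowest p that average 1 CPM or more. Ptpn11, Ptp4a1, Ptp4a2 and Aldh4a1 fall outside that rule and were chosen after their values were seen. Alternatives were other scalings, filters and thresholds, a replicate block, Gm42418 as a covariate, limma-voom 3.58.1, DESeq2 1.42.0 and leaving out each library. Promoter windows are from RefSeq, and all 4 genes matched. Some items are not reported here.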

Additional observations from a re-analysis of the deposited data

How the results depend on the processing

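The averaged log2 difference of the 4 genes kept its direction in each of the alternatives run, from 2.99 to 3.28 for Mpzl1, 2.56 to 3.16 for Slc25a18, 2.65 to 2.90 for Cnnm4 and 2.24 to 2.43 for Pdlim7. The difference of Slc25a18 between lines in JQ1 missed the threshold in the main fit (-0.44, edgeR adjusted p = 0.0830). It passed with no filter on low counts (-0.43, edgeR adjusted p = 0.0262). The test is not independent of how the gene was chosen, so no line difference is read from it. With 1 library left out the difference ran from -0.60 to -0.30, and the cause was not tested.

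The 14 genes called for the interaction became 80 with no filter, 8 with at least 5 CPM in 2 libraries, 26 with the replicate block, 8 with Gm42418 as a covariate, 7 at a threshold of 0.01 and 8 with DESeq2. The block changed no call on the 4 genes. The 840 genes differing between lines in DMSO became 376 at 0.01 and 306 with DESeq2, and the 795 in JQ1 became 343 with Gm42418, 370 at 0.01 and 327 with DESeq2. With Gm42418 as a covariate, 2908 genes were called for JQ1 in line #1.2.

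Leaving out 1 library gave 7029 to 7817 genes for JQ1 averaged, 4939 to 6260 for line #1.1, 4827 to 6771 for line #1.2, 8 to 459 for the interaction, 313 to 1318 for the lines in DMSO and 281 to 1538 for the lines in JQ1. The highest interaction and DMSO counts came without the first DMSO library of line #1.1, and the highest JQ1 count without the second. Of 948 comparisons of the 53 other named genes, 912 kept their call, 30 lost it and 5 gained it. Vim turned to -0.12 with Gm42418 as a covariate. For genes called in neither setting, a turn of sign was not counted. Few reads limit Mpzl1 and Slc25a18 in DMSO (9 to 31 a library).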
